A study of Rattus norvegicus with 9 samples.

Results

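A set of 8 genes that sense sterols or move cholesterol inside the cell were followed in rat oligodendrocyte precursor cells (OPCs, the dividing cells that mature into myelin-forming oligodendrocytes) treated with bavisant, which blocks the histamine H3 receptor. They are Insig1, Insig2, Scap, Srebf1, Srebf2, Stard4, Npc1 and Npc2, chosen by gene name from a table of 32623 rows, in which each of the 8 had 1 row. No receptor for LDL (low-density lipoprotein) is among them, and uptake is represented by Npc1 and Npc2, which act after the particle has reached the lysosome. Bulk RNA was sequenced from primary cultures of wild-type rat brain, as 9 libraries collected on day 5. All were in differentiation medium with B27 and N1 supplements, 3 of them basal, 3 with 1 µM bavisant and 3 with 10 µM bavisant. Every group held one library each numbered P11, P13 and P14. What P marks is not labelled, nor whether each number is its own culture or animal, and p-values may therefore measure technical spread only.

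Cells read the cholesterol of their endoplasmic reticulum (ER) through Scap, which escorts the SREBP transcription factors, the products of Srebf1 and Srebf2, from the ER to the Golgi. When ER sterol is high, the Insig proteins hold Scap and its cargo back; when it is low, the factors are carried on, cleaved and enter the nucleus, where SREBP-2 mainly drives cholesterol synthesis and uptake and the SREBP-1c form drives fatty acid synthesis. Cholesterol taken up in lipoproteins leaves the lysosome through Npc2 and Npc1, and Stard4 carries sterol between membranes in the cytosol. Oligodendrocytes need large amounts of cholesterol because myelin is rich in it.

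The promoter windows of the genes that passed the test at 10 µM are shown because Insig1 and Srebf2 are known targets of the SREBPs, and Srebf1 has a start of its own for each of its main forms. Each window runs from 250 bases before to 50 bases after a RefSeq transcription start in build GRCr8 and reads 5′ to 3′ on the gene's strand; the deposited tables use rn6. Windows were listed for 7 of the 8 genes, 8 in all with a pair for Srebf1. Capitals mark 3 motifs, searched on both strands. They are the E-box, spelled CACGTG on either strand, the box named CCAAT, which reads as ATTGG from the other strand, and the GC box, spelled GGGCGG or, from the other strand, as CCGCCC. The Insig1 window is chr4:8057720-8058019 (minus strand), those of Srebf1 are chr10:45529115-45529414 and chr10:45518961-45519260 (minus strand), and that of Srebf2 is chr7:115543057-115543356 (plus strand).
Insig1: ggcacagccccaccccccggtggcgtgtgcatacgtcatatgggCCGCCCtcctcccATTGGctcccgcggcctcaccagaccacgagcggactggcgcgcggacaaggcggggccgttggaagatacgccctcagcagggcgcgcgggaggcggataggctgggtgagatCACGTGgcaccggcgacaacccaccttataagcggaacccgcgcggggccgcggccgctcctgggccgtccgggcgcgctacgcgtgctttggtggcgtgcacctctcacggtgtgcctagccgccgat
Srebf1, first start: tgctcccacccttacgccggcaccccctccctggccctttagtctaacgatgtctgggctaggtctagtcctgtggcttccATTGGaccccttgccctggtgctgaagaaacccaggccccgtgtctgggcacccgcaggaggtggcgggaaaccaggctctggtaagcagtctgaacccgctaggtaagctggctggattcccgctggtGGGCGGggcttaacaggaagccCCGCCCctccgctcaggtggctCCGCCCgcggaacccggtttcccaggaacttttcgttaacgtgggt
Srebf1, second start: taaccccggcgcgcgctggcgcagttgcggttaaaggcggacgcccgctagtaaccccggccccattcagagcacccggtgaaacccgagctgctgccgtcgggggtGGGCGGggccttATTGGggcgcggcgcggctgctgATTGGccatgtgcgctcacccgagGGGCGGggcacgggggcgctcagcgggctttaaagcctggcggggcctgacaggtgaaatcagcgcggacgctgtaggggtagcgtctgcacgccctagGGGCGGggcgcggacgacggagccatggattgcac
Srebf2: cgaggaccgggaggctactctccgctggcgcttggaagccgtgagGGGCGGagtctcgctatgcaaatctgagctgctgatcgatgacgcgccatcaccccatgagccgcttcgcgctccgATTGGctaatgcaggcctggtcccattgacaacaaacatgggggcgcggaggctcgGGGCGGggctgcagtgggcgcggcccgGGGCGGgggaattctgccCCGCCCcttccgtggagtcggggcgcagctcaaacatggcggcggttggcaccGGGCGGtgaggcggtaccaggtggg

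The Insig1 window held the E-box at position -79 from the start, a CCAAT box at -193 and a GC box at -206. The first Srebf1 window held 3 GC boxes and 1 CCAAT box, the second 3 GC boxes and 2 CCAAT boxes, and the Srebf2 window 5 GC boxes and 1 CCAAT box. Over the windows of all 7 genes, the E-box was in 2 of 8 (Insig1 and Scap), against 6.42% of 33469 windows in the table. The CCAAT box was in 6 of 8 against 37.5%, and the GC box in 7 of 8 against 33.1%. The sterol regulatory element written as TCACNCCAC was in 0 of 8 windows, against 1.12% of all, and with at most 1 mismatch in 5 of 8, against 23.7%. A match describes these letters only, and the absence of one says nothing about the factor.

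The libraries held 23919373 to 43059921 estimated reads, and 15321 genes, all 8 members among them, had enough reads to test. The first principal component of log2 CPM (counts scaled to a common total, with TMM factors) held 54.7% of the variance and set the 3 P11 libraries apart. When edgeR was run with the dose groups alone, 0 genes passed an adjusted p of 0.05 in any comparison. The unadjusted p was under 0.05 for 808, 81 and 717 genes for 10 µM against basal, 1 µM against basal and 10 µM against 1 µM. Where no gene differs, a calibrated test gives such a p to a share of 0.05 of the genes tested. DESeq2 without the P number called 64, 5 and 66 genes in the same order. When the P number was added as a block, edgeR called 607 genes at 10 µM against basal (66.7% of them lower, and 84.3% of 834 under scaling by library totals). It called 0 at 1 µM against basal (582 at an unadjusted p under 0.05, 8 by DESeq2 with the block) and 659 at 10 µM against 1 µM (69.7% lower, and 87.4% of 926 under library totals). The edgeR fit without the block was planned as the main one, and the blocked fit as an alternative printed beside it. Below, rose and fell refer to that alternative, the blocked edgeR fit, with p-values adjusted over all tested genes.

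The 8 genes spanned a wide range of levels per length. Over all 9 libraries Npc2 averaged 274 TPM and Insig1 267 TPM, above 96.3% and 96.2% of the tested genes, and their ranges overlapped. Srebf2 followed at 110 TPM, then Npc1 at 67.0 and Scap at 51.5 TPM, and the ranges of these neighbours did not overlap. Stard4 at 27.3 TPM and Insig2 at 26.8 TPM could not be ordered, and Srebf1, the lowest at 18.0 TPM, overlapped both. Over all 9 libraries, dose differences included, Srebf1 and Insig1 also varied most, with coefficients of variation of 27.1% and 19.1%. Scap varied least by that measure, at 5.94%. Within the basal libraries alone, Insig1 was at 229 ± 8.30, Srebf1 at 20.8 ± 1.64 and Scap at 53.3 ± 2.36 TPM (SD, n = 3).

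**Figure D1:**
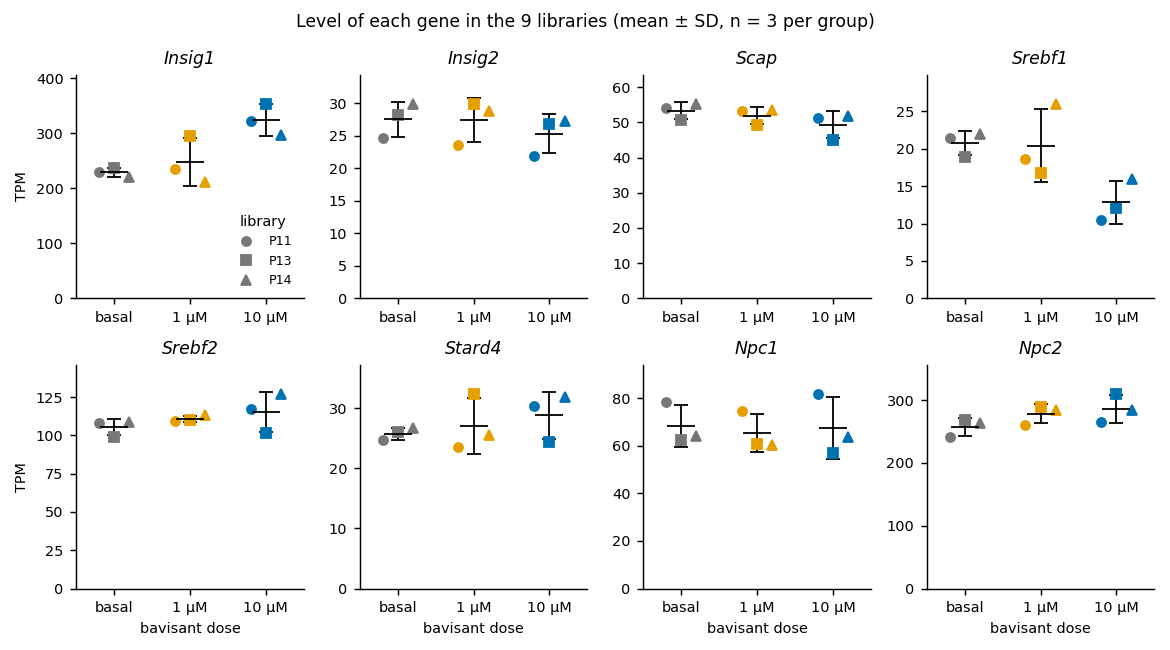
Level of each of the 8 genes (y axis, TPM) in the 9 libraries by bavisant dose (x axis). Points are libraries, with a symbol for each P number, and bars are the mean ± SD of 3 libraries. Insig1 at 10 µM lies above, and Srebf1 at 10 µM below, every basal library.

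At 10 µM bavisant, Insig1 and Srebf2 rose and Srebf1 fell relative to basal cultures, and the other 5 genes did not pass the test. The 2 that rose of 8 stand against a background of 1.32% of tested genes higher, and the 1 that fell against 2.64% lower. The members were chosen with earlier results of these data known, so these shares are not an independent test. Without the block 0 of 8 passed, as did 0% of all genes, and DESeq2 without the block called Insig1 alone among them (adjusted p = 0.0330). Between the 10 µM and the basal libraries, the CPM ranges were apart and higher for 2 of the 8 genes, Insig1 and Npc2 (4.72% of tested genes), and apart and lower for 1, Srebf1 (4.61%).

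Insig1 (ENSRNOG00000006859), the ER anchor that holds Scap back when sterol is high and whose gene is itself a target of the SREBPs, measured 442 (P11), 495 (P13) and 393 (P14) CPM at 10 µM, against 306, 305 and 284 CPM in basal cultures. Every library at 10 µM stood above every basal library, and P14 was the lowest in both groups. The log2 fold change was 0.56 ± 0.07 (SE, n = 3 libraries per group, 95% interval 0.40 to 0.72), a fold of 1.48, with an edgeR adjusted p = 0.0130 in the blocked fit and 0.733 without the block. Within P numbers it was 0.53 (P11), 0.70 (P13) and 0.47 (P14). Leaving out basal P11, basal P13 or 10 µM P14 ended the call, at adjusted p of 0.0598, 0.0575 and 0.0553, and limma on unfiltered TPM gave 0.0616. Without all 3 P11 libraries the log2 fold change was 0.60 (adjusted p = 0.0668). Insig1 was the only member whose estimated count was not a whole number, in 8 of 9 libraries, and a lncRNA, LOC102546740, overlaps it by 123 bases in RefSeq; the part of shared reads was not tested.

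Insig2 (ENSRNOG00000002478), the second anchor, whose transcription does not depend on the SREBPs in the same way, had 11.7, 14.6 and 13.8 CPM (P11, P13, P14) at 10 µM, against 12.8, 14.2 and 14.7 CPM in basal cultures. The groups overlapped, and the log2 fold change was -0.06 ± 0.07 (95% interval -0.22 to 0.10, adjusted p = 0.655). Per length, the TPM of Insig1 was 14.7, 13.2 and 10.9 times that of Insig2 in the 10 µM libraries, against 9.33, 8.44 and 7.41 times in the basal ones. The log2 ratio was higher by 0.62 at 10 µM, the groups did not overlap, and the exact two-sided permutation test gave p = 0.1, the smallest that 3 libraries against 3 allow.

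Scap (ENSRNOG00000020853), the escort and cholesterol sensor, was the steadiest of the set. It had 128, 112 and 123 CPM at 10 µM, against 130, 116 and 126 CPM in basal cultures, P13 being the lowest in both. The log2 fold change was -0.03 ± 0.04 (95% interval -0.12 to 0.06, adjusted p = 0.667).

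Srebf1 (ENSRNOG00000003463), which encodes SREBP-1, had 26.9, 31.1 and 39.2 CPM (P11, P13, P14) at 10 µM, against 53.2, 44.0 and 51.2 CPM in basal cultures. All 3 libraries at 10 µM were below all 3 basal libraries, and the gap was widest in P11. Its log2 fold change was -0.62 ± 0.12 (95% interval -0.89 to -0.35, a fold of 0.651, adjusted p = 0.0315 with the block and 0.838 without). Within P numbers the difference was -0.98 (P11), -0.50 (P13) and -0.38 (P14). The call was kept in 2 of 9 runs that left out 1 library, without the 1 µM P13 and the 1 µM P14 library. Leaving out basal P11, P13 or P14 ended it, at adjusted p of 0.0998, 0.140 and 0.0533, as did leaving out 1 µM P11, at 0.0617. It also ended without the 10 µM P11 (0.0524), P13 (0.0547) and P14 (0.0943) libraries, and without all 3 P11 libraries (log2 fold change -0.43, adjusted p = 0.116). Limma on unfiltered TPM gave 0.0784. The tables sum all transcripts of the gene, so the forms from its separate starts were not told apart here. Rai1 overlaps Srebf1 by 596 bases in RefSeq and had 47.4 to 60.8 CPM, with a log2 fold change of -0.17 ± 0.07 (adjusted p = 0.205).

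Srebf2 (ENSRNOG00000007400), which encodes SREBP-2, had 339, 304 and 355 CPM at 10 µM, against 309, 259 and 289 CPM in basal cultures. The groups overlapped, because the 10 µM P13 library lay below the basal P11 library, but each P number was higher at 10 µM, by 0.14, 0.23 and 0.30 log2 units in P11, P13 and P14. The log2 fold change was 0.22 ± 0.05 (95% interval 0.11 to 0.33, a fold of 1.17, adjusted p = 0.0494 with the block and 0.921 without). This call lay at the threshold and was kept in 1 of 9 runs that left out 1 library, the one without the 1 µM P13 library. The adjusted p was 0.0962, 0.198 and 0.178 without the basal P11, P13 and P14 libraries, 0.0783 and 0.0865 without the 1 µM P11 and P14 libraries, and 0.0629, 0.0834 and 0.154 without the 10 µM P11, P13 and P14 libraries. It was 0.0971 without all 3 P11 libraries, at a log2 fold change of 0.28. With the block, DESeq2 size factors (0.0517), library totals (0.0736) and limma on TPM (0.240, 0.244 and 0.313 in its 3 forms) also ended it. Limma gave a log2 fold change of 0.12 or 0.13. DESeq2 with the block (0.0088) and the blocked fit without a count filter (0.0414) kept the call. Srebf2 hosts the microRNA gene Mir33, which was listed at 0 CPM in all libraries. Whether these libraries could capture so short an RNA is not known here, so that value is no reading of its expression.

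The balance of both SREBP genes was compared in the same way. Per length, Srebf2 exceeded Srebf1 by 11.2, 8.39 and 7.93 times (P11, P13, P14) at 10 µM, against 5.03, 5.24 and 4.94 times in basal cultures. The basal ratios lay close together, and all ratios at 10 µM were above them. The log2 ratio was higher by 0.84 at 10 µM (exact two-sided permutation test, p = 0.1, again the smallest possible).

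**Figure D2:**
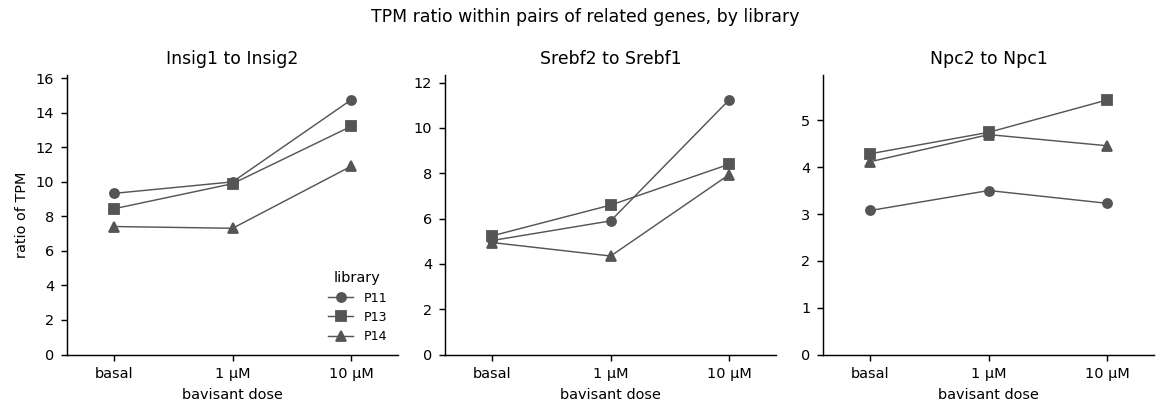
Ratio of TPM (y axis) within 3 pairs of related genes by bavisant dose (x axis), with 1 line per P number. The ratios of Insig1 to Insig2 and of Srebf2 to Srebf1 at 10 µM are above all basal ratios, while the Npc2 to Npc1 ratios overlap between doses and are lowest in P11.

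Stard4 (ENSRNOG00000020468), a soluble sterol carrier whose gene is an SREBP target in mouse, had 49.4, 40.4 and 49.3 CPM at 10 µM, against 39.4, 39.9 and 40.4 CPM in basal cultures. The P11 and P14 libraries at 10 µM were high, while the P13 library lay within the basal range. The log2 fold change was 0.22 ± 0.12 (95% interval -0.06 to 0.50, adjusted p = 0.328), as large as that of Srebf2 with a wider error.

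Npc1 (ENSRNOG00000012016), the lysosomal membrane protein that exports cholesterol, had 267, 186 and 196 CPM at 10 µM, against 245, 191 and 190 CPM in basal cultures. P11 was the highest library in both groups, and the groups overlapped. The log2 fold change was 0.05 ± 0.05 (95% interval -0.06 to 0.15, adjusted p = 0.585). Rmc1 overlaps it by 283 bases in RefSeq and had 44.2 to 57.0 CPM.

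Npc2 (ENSRNOG00000012062), the soluble lysosomal protein that hands cholesterol to Npc1, had 187, 220 and 189 CPM at 10 µM, against 166, 176 and 170 CPM in basal cultures. The groups did not overlap, and P13 was highest in both. The log2 fold change of 0.22 ± 0.05 (95% interval 0.11 to 0.33) had an adjusted p = 0.0501 in the blocked fit, just above the 0.05 threshold, and 0.892 without the block. With the block, DESeq2 (0.0149) and the fit without a count filter (0.0441) called it. DESeq2 size factors (0.0517), library totals (0.0804) and limma on TPM (0.0651, 0.0658 and 0.0967 in its 3 forms) did not. Npc2 was called in 0 of 9 blocked runs that left out 1 library. The Npc2 to Npc1 ratio was 3.23, 5.44 and 4.46 at 10 µM, against 3.08, 4.29 and 4.12 in basal cultures (log2 difference 0.18, exact two-sided permutation p = 0.5). It was higher at 10 µM in each of the 3 P numbers, and P11 was lowest in both groups. With the libraries paired by P number, an exact two-sided sign-flip test gave p = 0.25 for this ratio and for the other two, the smallest that 3 pairs allow.

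**Figure D3:**
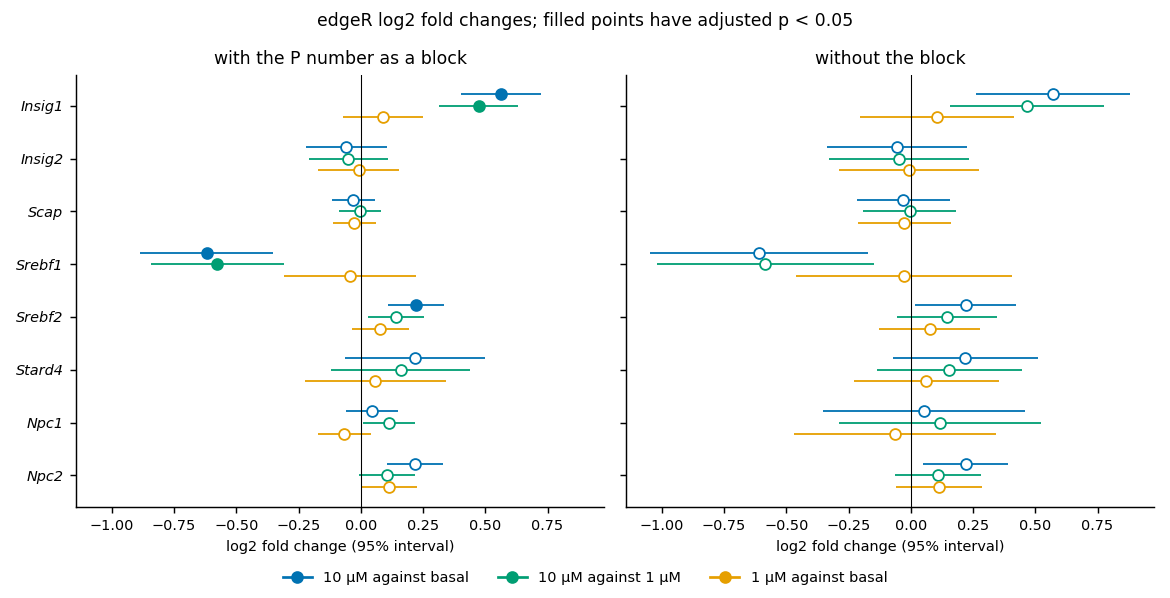
Log2 fold changes (x axis) of the 8 genes (y axis) in the 3 comparisons, from edgeR with the P number as a block (left) and without it (right). Lines are 95% intervals, and filled points have an adjusted p under 0.05: Insig1, Srebf1 and Srebf2 at 10 µM against basal, and Insig1 and Srebf1 at 10 µM against 1 µM, all on the left.

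At 1 µM bavisant none of the 8 genes passed the test against basal cultures, with or without the block, as was the case for 0% of all genes in each direction. The blocked log2 fold changes ran from -0.07 ± 0.05 (Npc1) to 0.11 ± 0.05 (Npc2), and the adjusted p of each was 1.00. Npc2 had 181, 189 and 183 CPM (P11, P13, P14) at 1 µM, against 166, 176 and 170 CPM in basal cultures. It was the 1 gene of the 8 whose 1 µM libraries all lay above the basal ones, a pattern that 1.48% of tested genes had, and 0 of 8 lay below, against 1.44%. Insig1 had 313, 380 and 268 CPM at 1 µM, where P11 and P13 were above and P14 below the basal range of 284 to 306 CPM (log2 fold change 0.09 ± 0.07, 95% interval -0.07 to 0.25). For Srebf1, P14 stood out at 1 µM with 60.9 CPM, while P11 and P13 had 45.9 and 39.0 CPM (-0.04 ± 0.12, 95% interval -0.31 to 0.22). Srebf2 had 310, 290 and 303 CPM at 1 µM (0.08 ± 0.05, 95% interval -0.03 to 0.19).

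Between the doses, Insig1 was higher and Srebf1 lower at 10 µM than at 1 µM. These were 1 of 8 genes higher, against 1.31% of tested genes, and 1 of 8 lower, against 3%. The Insig1 log2 fold change was 0.47 ± 0.07 (95% interval 0.31 to 0.63, adjusted p = 0.0182), and its 10 µM libraries lay above its 1 µM libraries, the 1 such gene of 8 (4.14% of tested genes). That call ended without the 1 µM P11 (adjusted p = 0.0731), 1 µM P14 (0.0869), 10 µM P13 (0.0513) or 10 µM P14 (0.0794) library, without all 3 P11 libraries (0.0650) and with limma on unfiltered TPM (0.0847). The Srebf1 log2 fold change was -0.58 ± 0.12 (95% interval -0.84 to -0.31, adjusted p = 0.0362). The highest 10 µM library, P14, lay just above the lowest 1 µM library, P13, so 0 of 8 genes were apart and lower, against 4.36% of tested genes. The Srebf1 call was kept without the basal P11 and the basal P14 library. It ended without the basal P13 (0.0607), 1 µM P11 (0.117), 1 µM P13 (0.0765) and 1 µM P14 (0.147) libraries. The same held without the 10 µM P11 (0.0582), P13 (0.0583) and P14 (0.109) libraries, without all 3 P11 libraries (0.0779) and with limma on unfiltered TPM (0.0923). Srebf2 was at 0.14 ± 0.05 (adjusted p = 0.150), Stard4 at 0.16 ± 0.12 (0.487), Npc1 and Npc2 both at 0.11 ± 0.05 (0.210 and 0.259), Insig2 at -0.05 ± 0.07 (0.722) and Scap at -0.0036 ± 0.04 (0.970). The comparisons share libraries and so are not independent of each other.

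The genes also differed between P numbers. In the edgeR fit with group and P number, 6 of 8 passed the test over the P numbers, a share to be read against 51.5% of all tested genes. Npc1 had the smallest p, with means of 249 ± 16.3 CPM in P11, 187 ± 3.47 in P13 and 188 ± 8.47 in P14 (SD, n = 3 libraries each, adjusted p = 2.06e-04). Scap was lowest in P13 (114 CPM, against 129 in P11 and 124 in P14, adjusted p = 0.00929), and Insig1 was lowest in P14 (315 CPM, against 354 in P11 and 393 in P13, adjusted p = 0.0158). Insig2, Srebf1 and Srebf2 passed at 0.0377, 0.0394 and 0.0376, while Npc2 (0.102) and Stard4 (0.926) did not. When 1 library was left out, between 2 and 5 of the 8 passed. Summed markers of mural cells and fibroblasts were at 483 to 683 CPM in the P11 libraries, 154 to 307 CPM in P13 and 68.2 to 102 CPM in P14. Col1a1 alone averaged 304 ± 299 CPM in the basal libraries. Endothelial sums were also highest in P11 (46.0 to 61.6 CPM, against 15.9 to 23.4 in P13 and 5.66 to 8.61 in P14). Neuron sums were lowest there (235 to 261 CPM, against 425 to 547 in P13 and 411 to 503 in P14). The part of these cell types in the Npc1 difference was not tested.

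The genes most like each member were found after subtracting each P number's mean log2 CPM, over the 9 libraries. Nearest to Insig1 were Cyp51 (Pearson r = 0.998), Msmo1 (0.997) and Hsd17b7 (0.995), all enzymes of cholesterol synthesis. Srebf1 was nearest to Cxcl14 (0.99), Mt1m (0.98) and Acsbg1 (0.98), and Srebf2 to Padi2 (0.99), Polg (0.98) and Ube4b (0.97). Npc1 ran closest to Rufy3 (0.99), Sec23ip (0.97) and Atg2a (0.96), Npc2 to Ndufaf3 (0.99), Rpl14 (0.99) and Polr2j (0.98), and Stard4 to Crbn (0.99), Dnaja4 (0.98) and Foxk2 (0.98). Insig2 had Ap1ar (0.97), Rilpl2 (0.95) and Mknk1 (0.95), and Scap had Map3k12 (0.96), Celf5 (0.95) and Cc2d2a (0.95). Among the members, Insig1 had r = 0.92 with Srebf2, -0.92 with Srebf1 and 0.83 with Npc2. These are the closest of many genes over few libraries that share 3 doses, and describe likeness only.

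Most enzymes of sterol synthesis, known targets of SREBP-2, rose at 10 µM. Against basal cultures, 16 of 20 rose and 0 fell, against 1.32% higher and 2.64% lower of all tested genes. The list was chosen with earlier results of these data known, so that share is not an independent test. Their median was 0.40 on the log2 scale, against -0.01 over all tested genes. Without the block 0 of 20 passed. Dhcr7, which makes the last step to cholesterol in one branch, was at 0.42 ± 0.04 (225 ± 18.6 CPM at 10 µM, against 168 ± 14.6 CPM in basal cultures, SD, n = 3 each, adjusted p = 0.0101). Mvk (mevalonate kinase) was at 0.48 ± 0.05, Sc5d (a sterol desaturase) at 0.39 ± 0.05 and Fdps (farnesyl diphosphate synthase) at 0.47 ± 0.06, with adjusted p of 0.0101, 0.0124 and 0.0129. At 1 µM against basal 0 of 20 passed (median 0.07). At 10 µM against 1 µM 14 of 20 were higher (median 0.32), against 1.31% of all tested genes.

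The other pathway lists are read against the same background at 10 µM against basal, 1.32% of tested genes higher and 2.64% lower. Of 13 genes that cleave the SREBPs or carry them to the Golgi (the site proteases and the COPII coat), 0 passed at 10 µM against basal, with log2 fold changes from -0.14 to 0.11. Of 16 genes for turnover of the Insig proteins and sterol-driven degradation, 1 fell, the ER ubiquitin ligase Rnf145 (-0.41 ± 0.05; 128 ± 7.46 CPM at 10 µM, against 171 ± 4.59 CPM in basal cultures, adjusted p = 0.0114). Of 16 fatty acid targets of SREBP-1, 1 rose, the acetyl-CoA synthetase Acss2 (0.36 ± 0.07, adjusted p = 0.0348), and the median was -0.11. Of 11 targets of the oxysterol receptor LXR and efflux genes, 2 fell. Abca1, which exports cholesterol to lipoproteins, was at -0.90 ± 0.11 (192 ± 78.4 CPM at 10 µM, against 363 ± 177 CPM in basal cultures, adjusted p = 0.0120), and the related exporter Abcg1 at -0.46 ± 0.05 (adjusted p = 0.0101). Srebf1 is itself a known LXR target. At 10 µM against 1 µM, where 1.31% of tested genes were higher and 3% lower, 4 of these 11 were lower. Mylip and Smpdl3a were the genes added, both named after their values were seen. In the same comparison Rnf145 was again lower (1 of 16) and Acss2 higher (1 of 16). For the 13 cleavage and COPII genes 0 passed.

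On the transport side, 0 of 14 lysosomal genes passed at 10 µM against basal (log2 fold changes from -0.27 to 0.23). Of 21 genes of non-vesicular sterol transport, 1 fell, the ER sterol transfer protein Gramd1b (-0.52 ± 0.08, adjusted p = 0.0224). Of 11 genes listed as lipoprotein receptors or their relatives, 1 fell, Lrp4 (-0.48 ± 0.08, adjusted p = 0.0230). Not every gene of that list takes up lipoproteins, and uptake was not measured. At 10 µM against 1 µM, 1 of 14 lysosomal genes was higher and 1 lower. Gramd1b (1 of 21) and Lrp4 (1 of 11) were again lower in that comparison. At 1 µM against basal 0 genes of any of these lists passed.

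**Figure D4:**
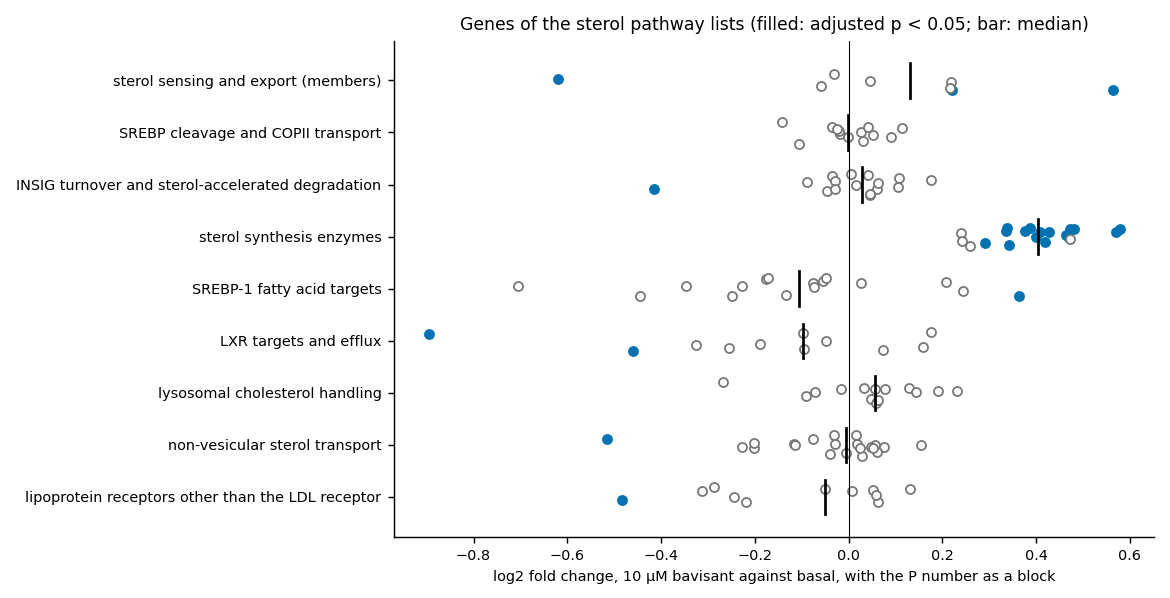
Log2 fold change at 10 µM against basal (x axis) of each tested gene in the 8 members' row and 8 pathway lists (y axis), with the P number as a block. Filled points have an adjusted p under 0.05 and bars are medians; 16 of 20 sterol synthesis enzymes are filled and lie to the right of 0, and the called members lie on both sides of it.

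Some markers of the cell types in the cultures differed at the same dose. Of the sums below, only that of mature oligodendrocytes at 10 µM lay apart from its basal range, but these ranges span all P numbers. Within each P number, the mature oligodendrocyte and OPC sums were higher at 10 µM than in basal cultures. The astrocyte, neuron, endothelial, and mural and fibroblast sums were lower in each. Astrocyte sums were 1931 (P11), 2526 (P13) and 2776 (P14) CPM at 10 µM, against 2564, 3073 and 3179 CPM in basal cultures. The microglia sum was lower in P13 and P14 but not in P11. Summed over 6 genes, mature oligodendrocyte markers were at 59910 to 68640 CPM at 10 µM and 41380 to 52100 CPM at 1 µM, against 42730 to 52030 CPM in basal cultures, and 5 of 6 rose at 10 µM. The OPC markers summed to 5062 to 5774 CPM at 10 µM, against 4629 to 5360 CPM in basal cultures, and 2 of 7 rose. These were Olig1 and Olig2 (adjusted p = 0.0217 and 0.0378). Pdgfra (0.0926), Cspg4 (0.0676) and Sox10 (0.0502) were higher but not called. Ptprz1 and Gpr17 had log2 fold changes of -0.21 and -0.13 and were not called either. Astrocyte markers were at 1931 to 2776 CPM at 10 µM, against 2564 to 3179 CPM in basal cultures (2 of 7 fell). Microglia markers were at 453 to 526 CPM, against 452 to 631 CPM (2 of 9 fell), and neuron markers at 240 to 425 CPM, against 261 to 547 CPM (2 of 6 tested fell). Endothelial markers were at 5.66 to 46.0 CPM at 10 µM, against 6.51 to 55.0 CPM in basal cultures, and mural and fibroblast markers at 68.2 to 483 CPM, against 84.9 to 683 CPM, and 0 of these passed. Of all tested genes, 1.32% rose and 2.64% fell at 10 µM against basal. At 10 µM against 1 µM, where Insig1 and Srebf1 were also called, 5 of 6 mature oligodendrocyte markers and 1 of 7 OPC markers were higher. In that comparison 4 of 9 microglia, 2 of 5 tested mural and fibroblast, 1 of 3 tested endothelial, 1 of 7 astrocyte and 1 of 6 tested neuron markers were lower. The shares of all tested genes there were 1.31% higher and 3% lower. At 1 µM against basal the 9 microglia markers had log2 fold changes from 0.06 to 0.33, and 0 passed. The mural and fibroblast sum was 68.2 to 483 CPM at 10 µM, against 102 to 647 CPM at 1 µM, and the microglia sum 453 to 526 CPM, against 524 to 655 CPM. No listed marker was at 0 in all libraries. The part of these shifts in the Insig1, Srebf1 and Srebf2 differences, between the doses and against basal, was not tested, and in bulk RNA fewer cells of a type and less RNA per cell cannot be told apart.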

How the data were processed

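Expected counts per gene (estimated read counts, 92.4 to 93.0% of them whole numbers), unscaled between libraries, were deposited by the authors, 1 column for each library. TPM values, scaled by gene length, were deposited beside them. The submitters' processing notes name build rn6 and the tools FastQC, Trimmomatic, DRAGEN and Picard. The sources used here do not give the counter, the strand setting or the annotation release. The lower dose is 1 µM in the treatment labels and the design text, as used here, and 1 mM in the protocols. Rows without a gene name (399) held at most 0.0111% of a library's reads and stayed in no list. Columns of other samples numbered 0. Replicates of a group differed by more than sampling noise (23.3 to 114, chi-square over degrees of freedom).

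Estimated counts were rounded and tested in R 4.3.3 with edgeR 4.0.16 (quasi-likelihood F test, TMM, filterByExpr with a count minimum of 10 and a total minimum of 15, all 9 libraries, 1 coefficient per group), with Benjamini-Hochberg adjustment over 15321 genes. SE is the log2 fold change over the square root of F. Ratios of TPM were tested by an exact two-sided permutation test over libraries. Library depths were 23919373 to 43059921 reads. Intervals given in the text are from the blocked fit and cover the spread left between libraries once P number differences were removed. Without the block they were wider at 10 µM against basal, from 0.26 to 0.88 for Insig1 and from -0.35 to 0.46 for Npc1. Alternatives were DESeq2 1.42.0, its size factors, library totals, no count filter and leaving out each library. Others were limma 3.58.1 on log2 TPM with a pseudocount of 1 or 0.1, keeping genes of at least 1 TPM in 3 libraries, and limma without that filter. Leaving out the 3 P11 libraries was added after seeing the data. The blocked edgeR fit was run on counts simulated from that same fit. Such a run cannot test whether the block is right, and the other fits and the ratio tests were not simulated.

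Deviations from group means correlated by 0.319 to 0.772 across genes in all 9 same-number pairs, above 0.1 in each, and by -0.708 to 0.194 in the 18 other pairs between groups. By that rule the P numbers pair the libraries, so the fit with that number as a replicate block is given beside the one without it; the common dispersion was 0.00696 with the block and 0.0675 without.

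The members and lists were chosen with earlier results of these data known. Named are the 8 members, up to 4 genes called with the smallest p at 10 µM in each pathway list, and for each member the 3 most correlated genes of at least 10 CPM. Some cell type markers are also named. Some list members are not reported here. Promoter windows come from RefSeq (GRCr8).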

Additional observations from a re-analysis of the deposited data

How the results depend on the processing

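Direction was kept in 747 of 792 member values under other settings, and 0 of the 45 that turned had an adjusted p under 0.05. The calls depend on the replicate block. In the paired fit 607 genes and 3 members were called at 10 µM against basal, and 659 genes and 2 members at 10 µM against 1 µM, against 0 without it. Blocked alternatives at 10 µM against basal called 609 genes and 2 members (DESeq2 size factors), 834 and 2 (library totals), 947 and 4 (DESeq2), 715 and 4 (no count filter), 502 and 2 (limma, pseudocount 1), 506 and 2 (pseudocount 0.1) and 9 genes and 0 members (limma unfiltered). DESeq2 without the block called 64 genes and 1 member. At 10 µM against 1 µM the blocked counts were 656, 926, 987, 760, 453, 433 and 6 genes in the same order, with 2 members in each but the last (0), and 66 genes by DESeq2 without the block. At 1 µM against basal DESeq2 called 5 genes without and 8 with the block. Without the 3 P11 libraries the blocked fit called 10 and 110 genes at 10 µM against basal and against 1 µM, and 0 members.

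Leaving out 1 library, with or without the block, gave 0 to 581 genes and 0 to 3 members at 10 µM against basal, 0 to 651 and 0 to 2 at 10 µM against 1 µM, 0 to 2 genes at 1 µM against basal, and 2 to 5 members between P numbers. A group left with fewer libraries shares the spread of the others. Over these runs small log2 fold changes crossed 0. At 10 µM against basal they ran from -0.076 to 0.022 (Scap), -0.13 to 0.19 (Npc1) and -0.12 to 0.030 (Insig2). At 10 µM against 1 µM they ran from -0.057 to 0.051 (Scap), -0.11 to 0.038 (Insig2) and -0.062 to 0.26 (Npc1). At 1 µM against basal the ranges were -0.072 to 0.027 (Scap), -0.22 to 0.11 (Srebf1), -0.20 to 0.068 (Npc1), -0.069 to 0.068 (Insig2), -0.037 to 0.22 (Insig1) and -0.13 to 0.15 (Stard4). Npc1 at 10 µM against basal was -0.0012 under library totals with the block, -0.0253 under limma with pseudocount 1 (with and without the block, and unfiltered) and -0.0257 with pseudocount 0.1. Insig2 at 1 µM against basal was 0.0022 under library totals and 0.0008 with the block added. Without the 3 P11 libraries it was 0.0161 (0.015 with the block), Srebf1 was 0.0757 (0.051), and Scap at 10 µM against 1 µM was 0.0113 (0.0119). The cause was not tested.

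With 3 libraries per group an exact test cannot go below 0.1, so the ratios could not pass 0.05. Estimated reads per member ran from 300 to 19295 in a library.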
